A study of Homo sapiens with 6 samples.

Results

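Autophagy and lysosome genes are 42 genes of the machinery that encloses cytoplasm in double-membraned autophagosomes and breaks it down in lysosomes, with the transcription factors that drive it. They were taken from the deposited count table by gene name. All 42 were found among 58735 genes, and all 42 passed the filter on low counts that left 14960 genes for testing. Expression was measured by RNA sequencing in Panc-1, an epithelial cell line from a human pancreatic cancer, labelled wild type, after 72 h of co-culture. In 3 libraries the partner was cancer-associated fibroblasts (CAF) overexpressing PAI-1 (CAF-PAI-1 libraries), and in 3 it was CAF without that overexpression (CAF libraries, headed CAF-NC by the authors). The labels say neither where the CAF came from nor how Panc-1 was separated from them, and they call the 3 libraries of each group biological replicates without saying what was repeated. The p-values cover the spread among these libraries.

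Autophagy begins when the ULK kinase complex and a lipid kinase complex around PIK3C3 mark a membrane, which grows, acquires lipid-linked proteins of the ATG8 family, takes up cargo through receptors such as SQSTM1, and fuses with the lysosome. There cathepsins and other hydrolases work at the low pH kept by the V-ATPase proton pump. TFEB, TFE3 and MITF switch on many of these genes and are held in the cytoplasm by the nutrient-sensing kinase mTORC1. Pancreatic cancer cells are known for high autophagy and lysosome activity.

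Library totals ran from 13992583 to 15880653 counts in CAF-PAI-1 and from 13628508 to 16006880 in CAF libraries, so that 3 counts equal 0.187 to 0.22 CPM (counts scaled to a common library size with the TMM method). The labels' extraction text names another line, Cal27, but squamous markers were near 0. The summed level of 6 epithelial keratin and adhesion genes was 2046 to 2308 CPM in CAF-PAI-1 and 1781 to 1891 CPM in CAF libraries. Nearly all of it came from KRT8, KRT18 and KRT19, which rose, as did KRT7. EPCAM was not called, and CDH1 (E-cadherin) was low, at 0.745 to 1.38 CPM in CAF-PAI-1 and 1.45 to 1.87 CPM in CAF libraries, and was not called (log2 fold change -0.73, edgeR adjusted p = 0.115). That of 10 fibroblast markers was 9.14 to 10.5 CPM in CAF-PAI-1 and 7.53 to 9.45 CPM in CAF libraries, with 8 of the 10 under 1 CPM in every library. Most of that sum came from COL3A1, with 80 to 107 reads in CAF-PAI-1 and 70 to 91 in CAF libraries, and COL6A3, with 31 to 50 and 27 to 43 reads, neither of which was called. THY1 had at most 10 reads in a library and the other 7 at most 4. In the macrophage list 5 of 6 markers were under 1 CPM throughout, with a summed level of 5.75 to 6.77 CPM in CAF-PAI-1 and 5.47 to 6.92 CPM in CAF libraries, held mostly by CD14. In the squamous list all 6 were under 1 CPM, with a summed level of 0.0726 to 0.84 CPM in CAF-PAI-1 and 0.863 to 1.01 CPM in CAF libraries. CAF-PAI-1 replicate 2 stood somewhat apart, with 3.78% of its counts from mitochondrially encoded genes, against 4.76% to 5.12% in the other CAF-PAI-1 libraries and 5.53% to 5.92% in CAF libraries. Without it, 8 of the 42 genes rose and 11 fell, beside 2446 and 2227 of all 15437 genes then tested. The part of mitochondrial and marker shares in the results was not tested. The samples are labelled Panc-1 cells, with fibroblast markers as low as given above. In RNA pooled over cells, fewer cells of a type and less RNA per cell cannot be told apart.

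Of the 42 genes, 9 rose, 10 fell and 23 did not pass the test with CAF overexpressing PAI-1. A gene is called changed at a Benjamini-Hochberg adjusted p under 0.05 in edgeR's quasi-likelihood test, and adjusted p-values below come from that test over the 14960 genes unless another tool is named. Changed members made up 45.2%, where 32.2% of all tested genes changed. At a mean of at least 10 CPM, 9610 genes were tested, without TFEB, GABARAP and MAP1LC3A. There 8 members rose and 11 fell, beside 2106 and 2057 of the 9610 genes. Of all genes, a larger share changed there than among the 14960. The shares of 32.2%, 17.2% and 15.0% set beside members here and below are of the 14960 genes, not matched to members for level. In the main test, 23 of the 42 members had an unadjusted p under 0.05, beside 6178 of the 14960 genes. By direction, 21.4% of members rose against 17.2% of all genes, and 23.8% fell against 15.0%. The members were chosen with earlier results of these data known, so these shares are a description and not a test. The 2 groups of libraries did not overlap for 24 members (57.1%), against 43.4% of all genes. With scaling by library size alone, 7 members rose and 13 fell, beside 1839 and 3182 of the 14960 genes. The changes were small. The median absolute log2 fold change was 0.19 over members and 0.21 over all genes. TFEB and GABARAP, both at low levels, were the 2 called members past 1.5-fold. Of the 14960 genes, 1258 were called and past 1.5-fold. The median log2 fold change of the members was 0.02.

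**Figure D1:**
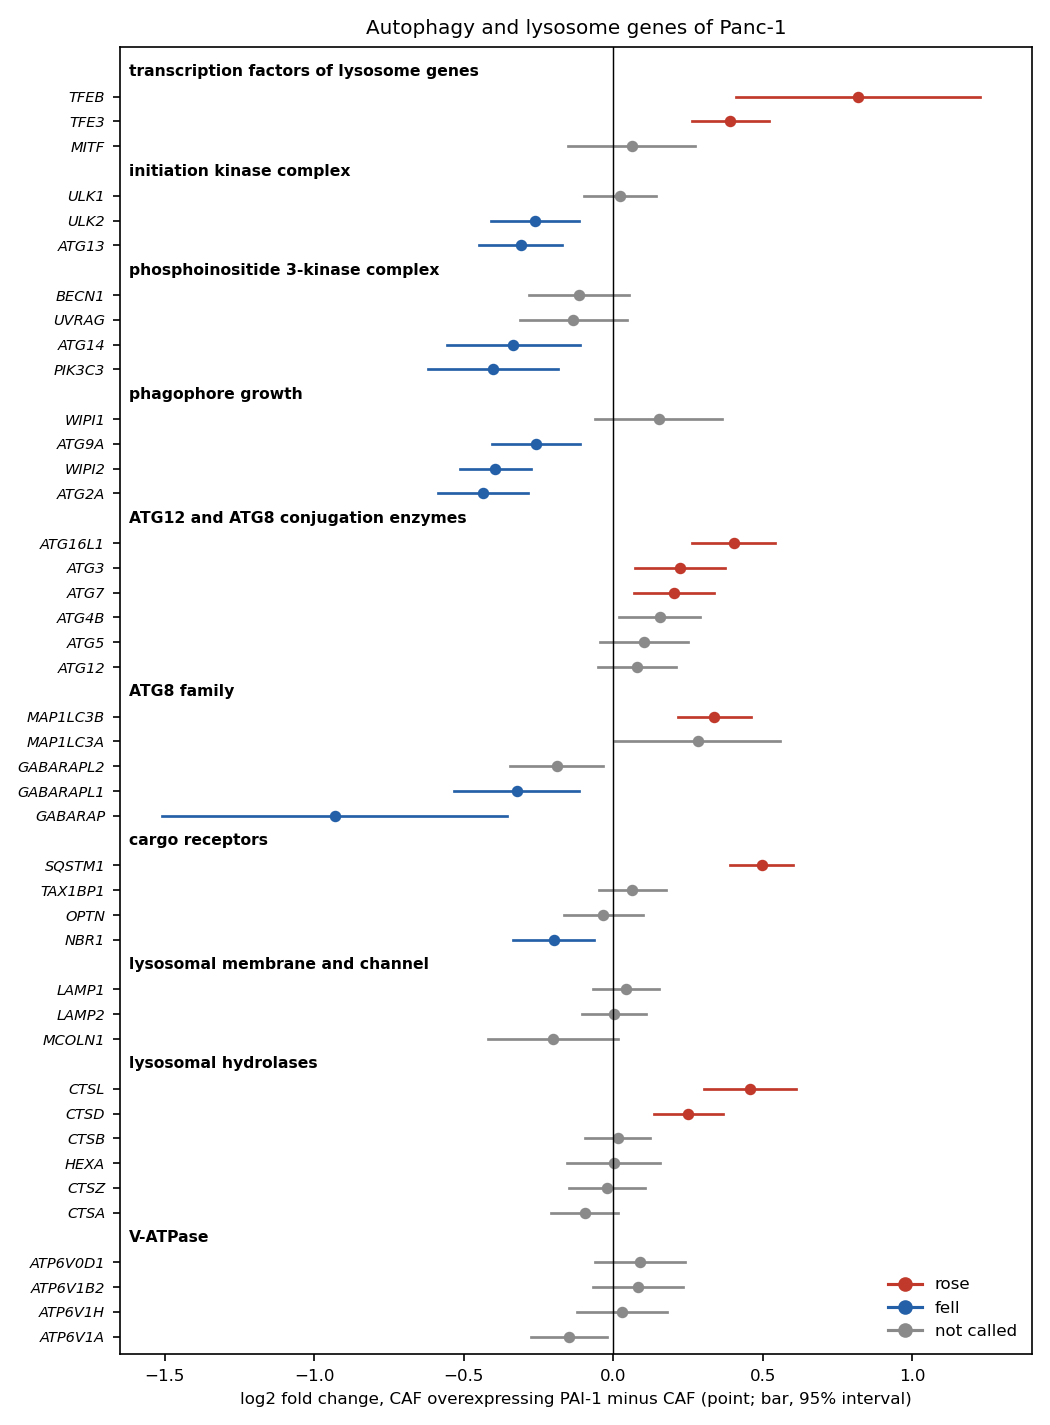
The log2 fold change (x axis, CAF overexpressing PAI-1 minus CAF) of each of the 42 genes, grouped by role, with its 95% interval from the edgeR fit; red points rose, blue points fell and grey points were not called. The 7 blue points of the initiation, lipid kinase and membrane growth steps lie between -0.26 and -0.44. All 6 genes of the conjugation step lie right of 0, and the V-ATPase subunits between -0.15 and 0.09.

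Of the 3 transcription factors of lysosome genes, 2 rose and 1 was not called, where 17.2% of all genes rose. TFEB had 5.96, 4.58 and 6.40 CPM in CAF-PAI-1 libraries, against 2.85, 3.28 and 3.52 CPM in CAF libraries. These rest on 63 to 99 reads a library with CAF-PAI-1 and 47 to 52 with CAF. TFEB rose 1.76-fold (log2 fold change 0.82, SE 0.20, edgeR adjusted p = 0.00168), and the groups did not overlap. TFE3, its close relative, had 109, 101 and 103 CPM in CAF-PAI-1 and 85.5, 76.3 and 76.6 CPM in CAF libraries. It rose 1.31-fold (log2 fold change 0.39, SE 0.064, edgeR adjusted p = 9.96e-06), again without overlap. MITF, the family member known from pigment cells, had 20.4, 19.6 and 17.3 CPM in CAF-PAI-1 and 17.3, 19.4 and 18.2 CPM in CAF libraries. Its groups overlapped and it was not called, with a log2 fold change between -0.15 and 0.27 (95% interval). Per length of exon, TFE3 stood at 24.3 CPM per kb with CAF-PAI-1 and 18.6 with CAF, MITF at 2.66 and 2.55, and TFEB at 0.999 and 0.57. On GRCh38, TFEB (ENSG00000112561) lies on the minus strand of chromosome 6 from 41683978 to 41736259, and TFE3 on the minus strand of chromosome X from 49028726 to 49043486.

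These factors bind the E-box letters CACGTG, and many lysosomal genes are known to carry them with GT before and AC after, a form called the CLEAR element. Promoters of 300 bases from RefSeq (GRCh38.p14, 250 before to 50 after the start) were at hand for 34 of the 42 genes. CACGTG, which reads the same on both strands, was present in 7 of the 34 (20.6%), against 12.6% of the 10392 tested genes with a promoter and 8.77% of all 27305 genes with one. The 10-base form, which contains the shorter and also reads the same on both strands, was in MCOLN1 alone among the 34 (2.94%), against 0.895% of tested genes. Of the 7 genes, ATG3 and CTSD rose, ATG14 fell, and LAMP1, CTSA, ATP6V0D1 and MCOLN1 were not called. Among all genes, CACGTG was in 13.5% of those that rose and 12.8% of those that fell. The sequences are shown to let these 7 be compared, with every CACGTG in capitals, first the whole promoters of CTSD, which rose, and of MCOLN1, which was not called, then 50 bases around the copy nearest the start of each of the others.
CTSD (chr11:1763878-1764177, minus strand): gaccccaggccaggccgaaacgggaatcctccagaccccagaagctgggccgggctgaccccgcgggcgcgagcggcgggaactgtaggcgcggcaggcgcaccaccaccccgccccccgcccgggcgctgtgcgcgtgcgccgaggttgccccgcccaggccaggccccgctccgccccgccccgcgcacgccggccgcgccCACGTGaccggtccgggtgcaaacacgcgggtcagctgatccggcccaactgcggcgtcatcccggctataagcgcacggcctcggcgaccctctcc
MCOLN1 (chr19:7522374-7522673, plus strand): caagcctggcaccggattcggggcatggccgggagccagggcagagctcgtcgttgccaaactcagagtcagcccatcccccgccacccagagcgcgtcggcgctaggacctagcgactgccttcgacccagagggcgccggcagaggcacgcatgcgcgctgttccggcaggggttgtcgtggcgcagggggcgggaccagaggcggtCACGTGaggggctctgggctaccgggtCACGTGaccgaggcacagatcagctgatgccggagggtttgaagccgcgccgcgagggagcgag
ATG3 (chr3:112561930-112561979, minus strand): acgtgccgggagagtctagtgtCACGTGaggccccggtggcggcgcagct
ATG14 (chr14:55411824-55411873, minus strand): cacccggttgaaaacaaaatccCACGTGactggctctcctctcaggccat
ATP6V0D1 (chr16:67481189-67481238, minus strand): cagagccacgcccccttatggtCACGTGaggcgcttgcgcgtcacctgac
CTSA (chr20:45891288-45891337, plus strand): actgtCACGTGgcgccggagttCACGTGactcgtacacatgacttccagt
LAMP1 (chr13:113297216-113297265, plus strand): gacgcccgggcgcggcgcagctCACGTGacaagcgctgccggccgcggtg
The LAMP1 promoter held 6 copies, those of ATG3, CTSA and MCOLN1 held 2 each, and the other 3 held 1 each. LAMP1, with the most copies of these 7, was not called (log2 fold change 0.04). A match of letters is a description and not a binding site.

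Of 3 genes of the kinase complex that starts autophagy, 2 fell and 1 was not called, where 15.0% of all genes fell. ULK1, one of a pair of related kinases, had 138, 147 and 139 CPM in CAF-PAI-1 and 151, 132 and 134 CPM in CAF libraries. It was not called, and the 95% interval of its log2 fold change ran from -0.10 to 0.14. Its paralog ULK2 had 41.1, 39.5 and 41.4 CPM in CAF-PAI-1 and 50.1, 47.9 and 48.5 CPM in CAF libraries. ULK2 fell to 0.833 of the CAF level (log2 fold change -0.26, SE 0.072, edgeR adjusted p = 0.00498), with no overlap. ATG13, the scaffold that links the kinase to its partners, had 50.8, 51.7 and 53.7 CPM in CAF-PAI-1 and 64.3, 67.2 and 62.1 CPM in CAF libraries. It fell to 0.807 of the CAF level (log2 fold change -0.31, SE 0.068, edgeR adjusted p = 0.000578). Whether ULK2 differed from ULK1 in its response was not tested.

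In the lipid kinase complex 2 of 4 members fell and none rose, where 15.0% of all genes fell. PIK3C3, the catalytic subunit that makes phosphatidylinositol 3-phosphate, had 14.1, 14.5 and 14.2 CPM in CAF-PAI-1 and 18.1, 19.3 and 19.1 CPM in CAF libraries. The groups lay well apart, and PIK3C3 fell to 0.756 of the CAF level (log2 fold change -0.40, SE 0.11, edgeR adjusted p = 0.00361). ATG14, the subunit that directs the complex to autophagy, had 21.6, 16.7 and 23.7 CPM in CAF-PAI-1 and 25.9, 28.7 and 23.7 CPM in CAF libraries. It fell (log2 fold change -0.33, SE 0.11, edgeR adjusted p = 0.0174), although CAF-PAI-1 replicate 3 all but met CAF replicate 3. The call was lost without CAF-PAI-1 replicate 2 (log2 fold change -0.21, adjusted p = 0.117), without CAF replicate 2 (adjusted p = 0.126) and with DESeq2 (adjusted p = 0.0534). BECN1, the shared scaffold, averaged 34.5 ± 2.74 CPM in CAF-PAI-1 and 37.4 ± 1.68 CPM in CAF libraries (SD, n = 3 each) and was not called. UVRAG, which takes the place of ATG14 in an endosomal form of the complex, averaged 29.1 ± 1.24 and 32.0 ± 2.84 CPM and was not called either.

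Of 4 genes for growth of the autophagosome membrane, 3 fell and 1 was not called, where 15.0% of all genes fell. ATG2A, a lipid transfer protein that feeds the growing membrane, had 48.9, 48.0 and 56.1 CPM in CAF-PAI-1 and 71.7, 71.8 and 63.6 CPM in CAF libraries. It fell to 0.739 of the CAF level (log2 fold change -0.44, SE 0.074, edgeR adjusted p = 1.7e-05). WIPI2, which reads the lipid mark made by PIK3C3 and recruits ATG16L1, had 93.2, 93.3 and 97.0 CPM in CAF-PAI-1 and 125, 127 and 121 CPM in CAF libraries. Replicates of WIPI2 were tight in both groups, and it fell to 0.761 of the CAF level (log2 fold change -0.39, SE 0.058, edgeR adjusted p = 1.99e-06). ATG9A, the membrane protein whose vesicles seed the autophagosome, had 60.7, 52.2 and 61.0 CPM in CAF-PAI-1 and 65.6, 74.8 and 67.9 CPM in CAF libraries. ATG9A fell (log2 fold change -0.26, SE 0.073, edgeR adjusted p = 0.00593). Without CAF replicate 2 its log2 fold change was -0.20 (adjusted p = 0.0729). It shares 38.8% of its exon length with AC068946.2 on the same strand, which had at most 3 reads in a library. WIPI1, a relative of WIPI2, had 19.0, 18.1 and 18.4 CPM in CAF-PAI-1 and 15.7, 17.7 and 16.5 CPM in CAF libraries. Its log2 fold change of 0.15 did not pass (SE 0.11, edgeR adjusted p = 0.29), though the groups did not overlap.

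Of the 6 genes of the machinery that attaches ATG8 proteins to lipid, 3 rose, none fell and 3 were not called, where 17.2% of all genes rose. The calls of ATG3 and ATG7 were each lost in 4 of 14 alternatives. ATG16L1, which places the conjugating complex on the membrane, had 90.4, 80.3 and 93.7 CPM in CAF-PAI-1 and 66.6, 63.9 and 69.9 CPM in CAF libraries. It rose 1.32-fold (log2 fold change 0.40, SE 0.068, edgeR adjusted p = 1.66e-05), with every CAF-PAI-1 library above every CAF library. ATG3, the conjugating enzyme for ATG8 proteins, had 52.3, 62.1 and 55.2 CPM in CAF-PAI-1 and 47.8, 50.2 and 47.3 CPM in CAF libraries. ATG7, the enzyme that activates both ATG8 proteins and ATG12, had 78.6, 71.0 and 73.3 CPM in CAF-PAI-1 and 66.0, 64.6 and 63.1 CPM in CAF libraries. Both rose without overlap, by 0.22 (SE 0.074, edgeR adjusted p = 0.0196) and 0.20 (SE 0.066, edgeR adjusted p = 0.0168) on the log2 scale. Of ATG7's exon length, 18.1% overlaps VGLL4 on the other strand. With library size alone the adjusted p was 0.109 for ATG3 and 0.111 for ATG7. The ATG3 call was also lost without CAF-PAI-1 replicate 2 (log2 fold change 0.15, adjusted p = 0.138), CAF replicate 1 (0.0638) or CAF replicate 3 (0.0723), and that of ATG7 without CAF-PAI-1 replicate 1 (adjusted p = 0.0932), CAF replicate 2 (0.0527) or CAF replicate 3 (0.0737). ATG4B, the protease that primes ATG8 proteins, was at 0.16 on the log2 scale and was not called (69.8 ± 1.75 CPM in CAF-PAI-1, 62.6 ± 3.06 CPM in CAF libraries, edgeR adjusted p = 0.0721). ATG5 and ATG12, which are joined to each other, were at 0.10 and 0.08 and were not called either. ATG5 averaged 60.7 ± 4.01 CPM in CAF-PAI-1 and 56.5 ± 4.21 CPM in CAF libraries, and ATG12 73.3 ± 2.10 and 69.3 ± 0.866 CPM.

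In the ATG8 family, 1 of 5 genes rose and 2 fell, where 17.2% of all genes rose and 15.0% fell. MAP1LC3B, the LC3 form commonly used to count autophagosomes, had 142, 131 and 131 CPM in CAF-PAI-1 and 101, 107 and 112 CPM in CAF libraries. It rose 1.26-fold (log2 fold change 0.34, SE 0.060, edgeR adjusted p = 3.45e-05). MAP1LC3A, another LC3 form, had 9.54, 10.9 and 11.2 CPM in CAF-PAI-1 and 8.25, 8.44 and 9.42 CPM in CAF libraries and was not called (log2 fold change 0.28, edgeR adjusted p = 0.114). In the other branch, GABARAPL1 had 17.8, 17.0 and 17.1 CPM in CAF-PAI-1 and 22.1, 19.7 and 23.2 CPM in CAF libraries. It fell to 0.799 of the CAF level (log2 fold change -0.32, SE 0.10, edgeR adjusted p = 0.0141). The adjusted p was above 0.05 without CAF replicate 1 (log2 fold change -0.31, adjusted p = 0.0519) or CAF replicate 3 (-0.27, adjusted p = 0.0827). GABARAPL2 had 36.0, 41.8 and 40.1 CPM in CAF-PAI-1 and 43.2, 45.5 and 45.8 CPM in CAF libraries. Its groups were apart, but its log2 fold change of -0.19 missed the threshold (SE 0.077, edgeR adjusted p = 0.0577). It passed in 4 of 14 alternatives, namely without CAF-PAI-1 replicate 2 (adjusted p = 0.0187), with library size alone (0.0107), at a mean of at least 10 CPM (0.0268) and with the replicate number as a block (0.0428). GABARAP had 22, 21 and 22 reads in CAF-PAI-1 libraries and 44, 38 and 48 reads in CAF libraries. It fell (log2 fold change -0.93, SE 0.28, edgeR adjusted p = 0.0103), a call lost without CAF replicate 3 (log2 fold change -0.77, adjusted p = 0.0714). The groups did not overlap in any of the 5, including the 2 that were not called, where 43.4% of all genes had no overlap. GABARAP shares 30.5% of its exon length with AC120057.2, an annotated gene on the same strand listed at 0 reads in every library, and 25.2% with AC120057.3 on the other strand, read at 2 to 13 reads with CAF-PAI-1 and 4 to 8 with CAF. No source used here tells how shared reads were assigned, so the low level of GABARAP is uncertain. MAP1LC3B2, a near copy of MAP1LC3B, had 26 to 47 reads a library with CAF-PAI-1 and 22 to 41 with CAF. Differences between the branches were not tested.

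**Figure D2:**
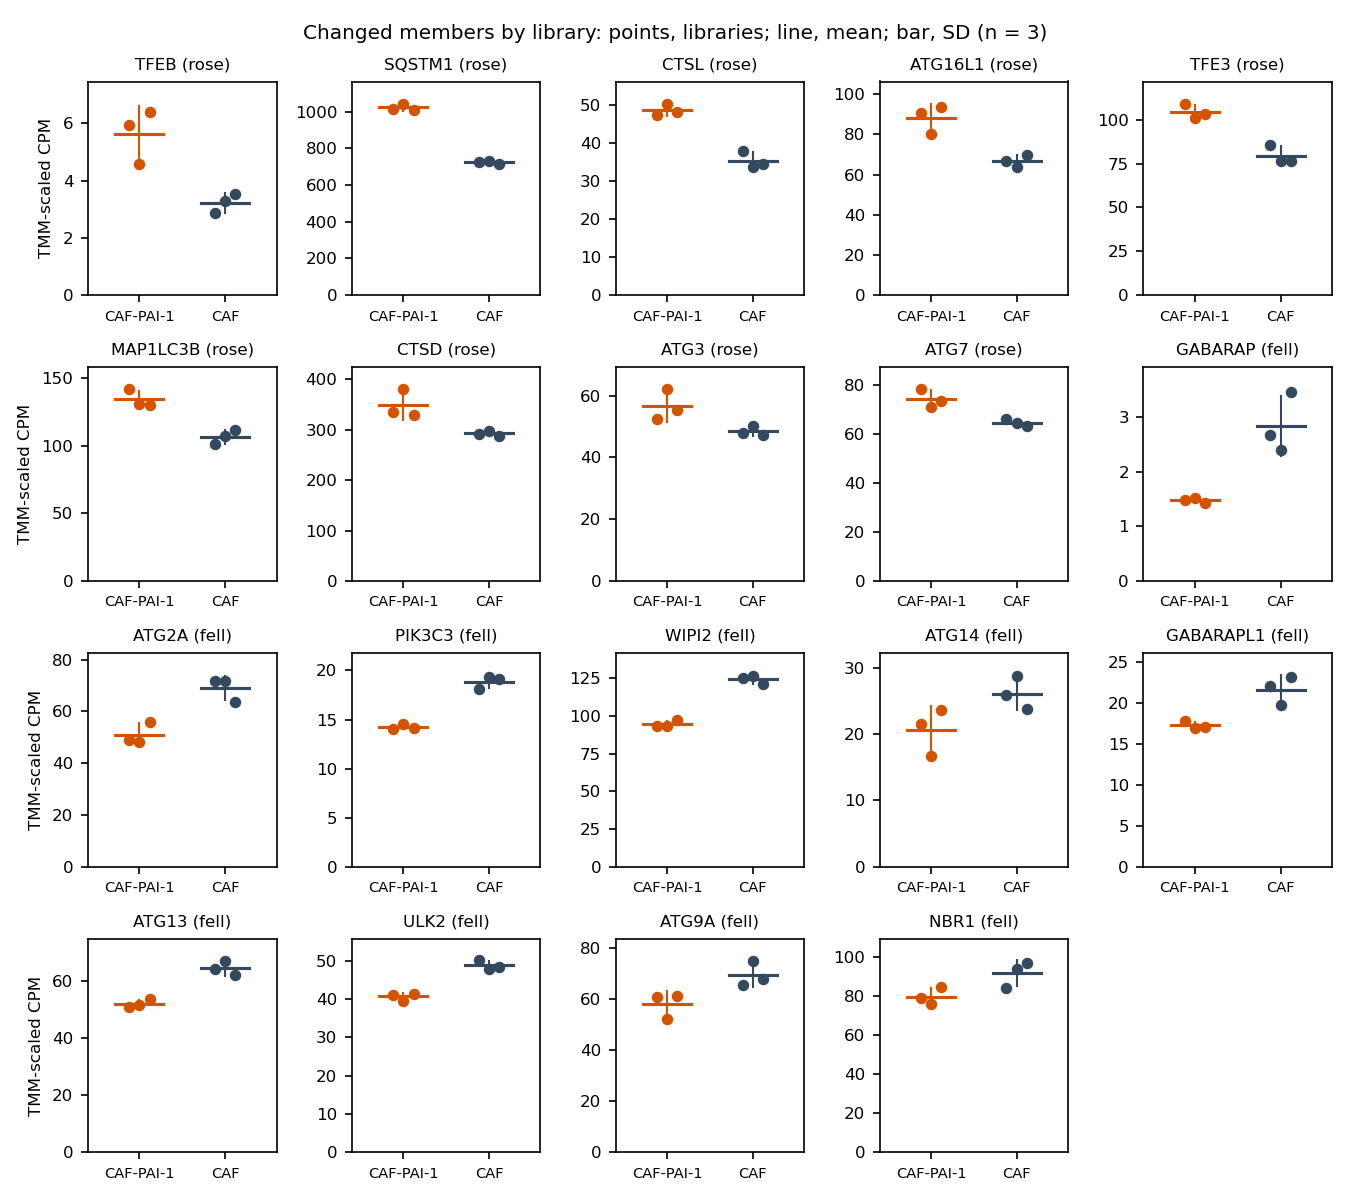
TMM-scaled CPM (y axis, from 0) of the 19 changed genes in each library; points are libraries, the line is the mean and the bar the SD over 3 libraries, CAF overexpressing PAI-1 at left and CAF at right of each panel. SQSTM1 sits at 1010.3 to 1042 CPM with CAF overexpressing PAI-1 and at 715 to 733 CPM with CAF, and in NBR1 alone among the 19 panels the groups overlap.

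Among the 4 receptors that bring cargo to the autophagosome, SQSTM1 rose and NBR1 fell, where 17.2% of all genes rose and 15.0% fell. SQSTM1 encodes p62, a receptor for ubiquitin-marked cargo that is itself degraded by autophagy. It had 1015, 1042 and 1010.3 CPM in CAF-PAI-1 and 727, 733 and 715 CPM in CAF libraries. SQSTM1 rose 1.41-fold (log2 fold change 0.50, SE 0.051, edgeR adjusted p = 1.88e-09), with a gap between the groups many times the spread within them. It also had more CPM per kb of exon than any other member, 134 with CAF-PAI-1 and 94.7 with CAF. On GRCh38, SQSTM1 (ENSG00000161011) occupies chr5:179806398-179838078 (plus strand), and 20.7% of its exon length overlaps MRNIP on the other strand, which averaged 49.2 ± 2.45 CPM with CAF-PAI-1 and 42.6 ± 3.89 CPM with CAF. NBR1, a relative of SQSTM1 in function, had 78.9, 75.9 and 84.8 CPM in CAF-PAI-1 and 84.4, 93.9 and 97.2 CPM in CAF libraries. The highest CAF-PAI-1 library reached the lowest CAF library, and NBR1 fell by 0.20 on the log2 scale (SE 0.066, edgeR adjusted p = 0.0197). That call was lost without CAF replicate 2 (log2 fold change -0.18, adjusted p = 0.0869) or CAF replicate 3 (-0.16, adjusted p = 0.135). OPTN, a receptor for damaged mitochondria and bacteria, and TAX1BP1, a receptor for protein aggregates, had log2 fold changes of -0.03 and 0.06, with 95% intervals of -0.17 to 0.10 and -0.05 to 0.18, and were not called. OPTN averaged 82.8 ± 1.64 CPM in CAF-PAI-1 and 84.7 ± 6.67 CPM in CAF libraries, and TAX1BP1 223 ± 7.80 and 213 ± 9.23 CPM.

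At the lysosome, 2 of 6 hydrolases rose, where 17.2% of all genes did. CTSL, a cysteine protease, had 47.4, 50.2 and 48.1 CPM in CAF-PAI-1 and 37.8, 33.8 and 34.4 CPM in CAF libraries. It rose 1.37-fold (log2 fold change 0.46, SE 0.076, edgeR adjusted p = 1.37e-05). CTSD, the main aspartic protease of the lysosome, had 335, 381 and 329.5 CPM in CAF-PAI-1 and 292, 298 and 288 CPM in CAF libraries. CTSD rose 1.19-fold (log2 fold change 0.25, SE 0.056, edgeR adjusted p = 0.000714), and in both genes every CAF-PAI-1 library was above every CAF library. Of its exon length, 41.7% is shared with AC068580.4 on the same strand, which had 24 to 32 reads with CAF-PAI-1 and 9 to 12 with CAF. With those reads added, CTSD had a log2 fold change of 0.26 (adjusted p = 0.000582). A further 15.8% overlaps AC068580.3 on the other strand, at 12 to 19 reads with CAF-PAI-1 and 25 to 40 with CAF. CTSB, another cysteine protease, was not called. It averaged 364 ± 15.1 CPM in CAF-PAI-1 and 360.1 ± 11.6 CPM in CAF libraries. CTSA, a protective carboxypeptidase, CTSZ and HEXA, a subunit of beta-hexosaminidase, had log2 fold changes of -0.10, -0.02 and 0.00 and were not called, although CTSA was with library size alone (-0.16, adjusted p = 0.0232). CTSA averaged 193 ± 5.87 CPM in CAF-PAI-1 and 206 ± 10.7 CPM in CAF libraries, CTSZ 96.6 ± 6.79 and 98.0 ± 0.719 CPM, and HEXA 45.0 ± 2.46 and 44.9 ± 3.21 CPM.

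None of the 3 membrane proteins and none of the 4 proton pump subunits among the members was called, where 32.2% of all genes changed. LAMP1 and LAMP2, the abundant glycoproteins that line the lysosome, averaged 263 ± 13.1 and 405 ± 10.9 CPM in CAF-PAI-1 and 255 ± 4.56 and 404 ± 14.3 CPM in CAF libraries. Their 95% intervals ran from -0.07 to 0.15 and from -0.10 to 0.11 on the log2 scale. MCOLN1, the calcium channel TRPML1, had 22.3, 17.9 and 18.6 CPM in CAF-PAI-1 and 24.8, 22.8 and 19.9 CPM in CAF libraries. It was not called (log2 fold change -0.20, SE 0.11, edgeR adjusted p = 0.152), but was without CAF-PAI-1 replicate 1 (log2 fold change -0.31, adjusted p = 0.0383). Of the V-ATPase subunits, ATP6V1A, the catalytic subunit, had 77.0, 78.6 and 76.0 CPM in CAF-PAI-1 and 83.4, 84.0 and 89.3 CPM in CAF libraries. The groups did not overlap, but its log2 fold change of -0.15 did not pass (SE 0.063, edgeR adjusted p = 0.07). It passed with library size alone (-0.21, adjusted p = 0.0082), at a mean of at least 10 CPM (adjusted p = 0.0288) and without CAF-PAI-1 replicate 2 (adjusted p = 0.0447). ATP6V0D1, ATP6V1B2 and ATP6V1H were not called, with 0.09, 0.08 and 0.03 on the log2 scale and overlapping groups. ATP6V0D1 averaged 54.6 ± 4.77 CPM in CAF-PAI-1 and 51.3 ± 2.57 CPM in CAF libraries, ATP6V1B2 47.9 ± 3.22 and 45.3 ± 1.73 CPM, and ATP6V1H 51.2 ± 4.10 and 50.1 ± 1.94 CPM.

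**Figure D3:**
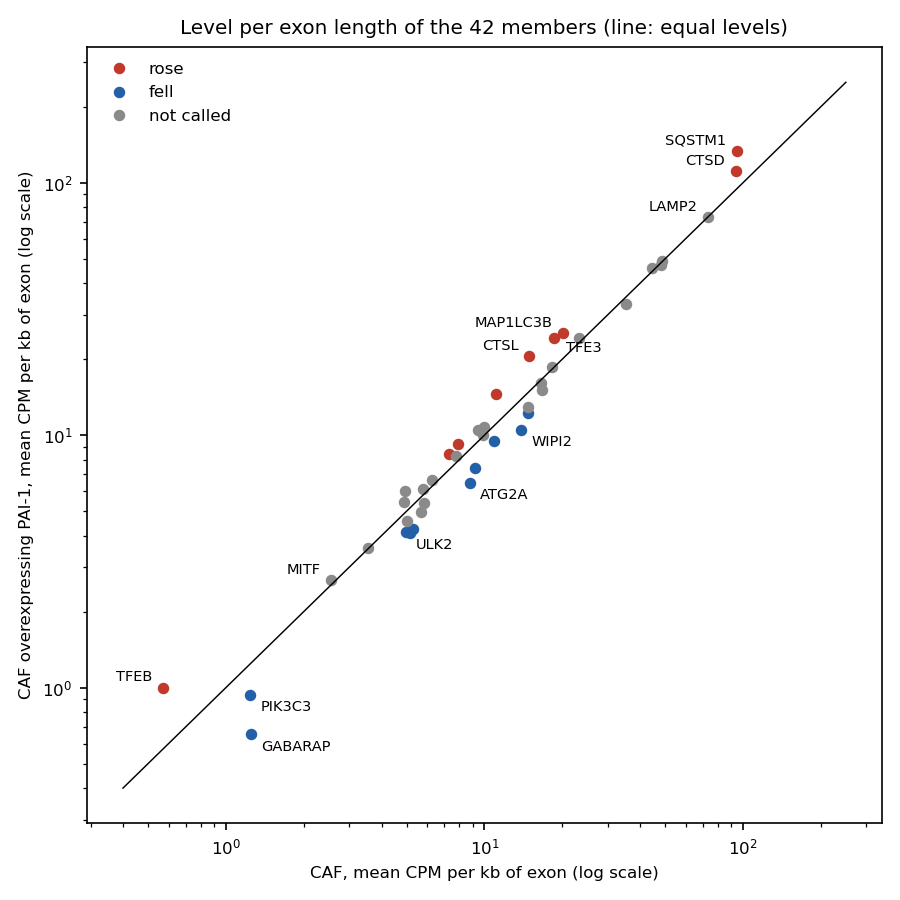
Mean level of the 42 genes in CPM per kb of exon (both axes logarithmic), with CAF overexpressing PAI-1 on the y axis and CAF on the x axis; the line marks equal levels. The levels span from 0.653 (GABARAP) to 134 (SQSTM1) with CAF overexpressing PAI-1 and all points lie near the line, with TFEB above it and GABARAP below it.

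Levels per exon length differed far more between members than between groups. SQSTM1, CTSD and LAMP2 led with 134, 111 and 73.2 CPM per kb of exon in CAF-PAI-1 and 94.7, 93.6 and 73.1 in CAF libraries. GABARAP, PIK3C3 and TFEB were lowest in CAF-PAI-1 libraries with 0.653, 0.938 and 0.999, against 1.25, 1.24 and 0.57 in CAF libraries. Exon length here counts every annotated exon of a gene once, so that genes with many little-used exons come out low.

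A further 179 genes of the pathway, in 6 lists by function, put these members in context. Of the 171 tested, 21 rose and 34 fell, and the 32.2% that changed equals the share among all tested genes to the digits given. With library size alone, 10 rose and 51 fell, and without CAF replicate 3, 13 rose and 24 fell. Their median log2 fold change was -0.02. Among regulators of mTORC1 and ULK, 6 of 38 tested genes rose and 10 fell (median -0.11). SESN2, a stress-induced inhibitor of mTORC1, averaged 77.5 ± 3.14 CPM in CAF-PAI-1 and 36.6 ± 3.53 CPM in CAF libraries and rose 2.12-fold (log2 fold change 1.08, SE 0.075, edgeR adjusted p = 1.36e-13). ATG101, the partner of ATG13 in the ULK complex, averaged 55.9 ± 4.88 and 33.3 ± 3.16 CPM and rose by 0.75 on the log2 scale (SE 0.081, edgeR adjusted p = 5.98e-09). DEPDC5, part of a brake on mTORC1, averaged 7.32 ± 1.00 and 10.5 ± 1.27 CPM and fell (log2 fold change -0.51, SE 0.15, edgeR adjusted p = 0.00738). Its adjusted p was above 0.05 without CAF-PAI-1 replicate 3 (log2 fold change -0.44, adjusted p = 0.0512) or CAF replicate 3 (-0.41, adjusted p = 0.0594). RB1CC1, the fourth component of the ULK complex and named after its values were seen, averaged 77.8 ± 2.27 and 108 ± 3.37 CPM and fell (log2 fold change -0.48, edgeR adjusted p = 1.27e-07). Within that complex, ATG13, RB1CC1 and ULK2 thus fell, ATG101 rose, and ULK1 was not called (log2 fold change 0.02).

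**Figure D4:**
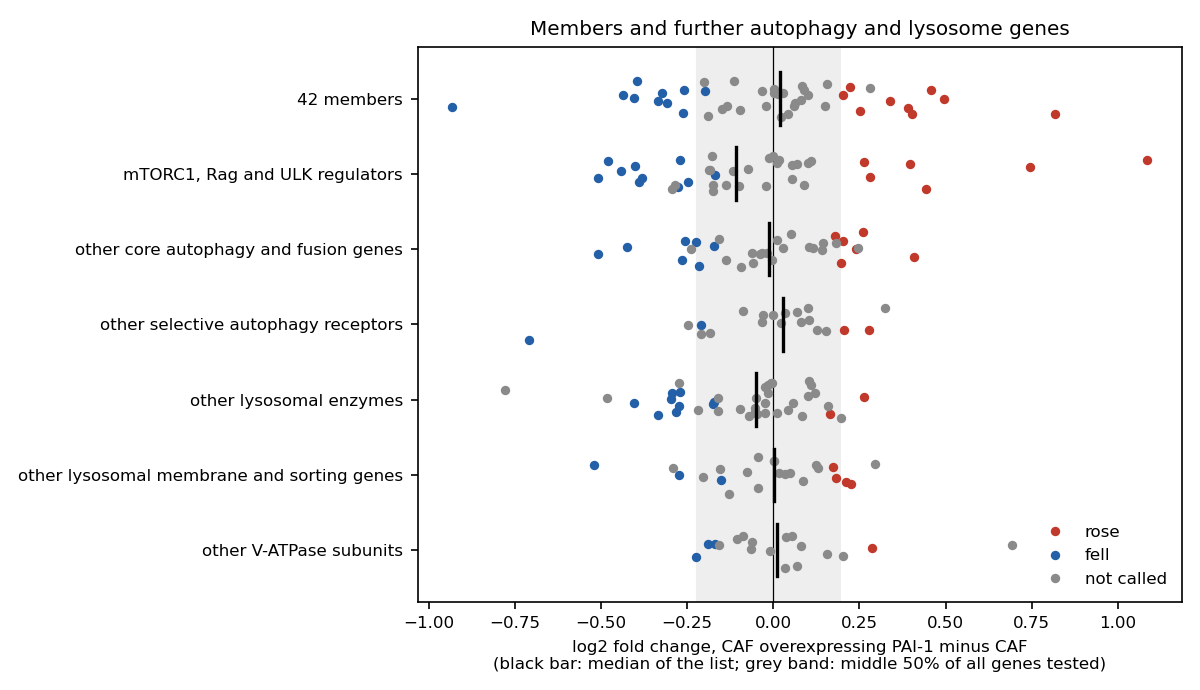
Log2 fold change (x axis, CAF overexpressing PAI-1 minus CAF) of the 42 members and of the tested genes in 6 further lists (rows); red points rose, blue points fell, grey points were not called, the black bar is the list median and the grey band the middle 50% of all tested genes. Medians lie between -0.11 (mTORC1, Rag and ULK regulators) and 0.03 (other selective autophagy receptors), and SESN2 is the point furthest right at 1.08.

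Other core autophagy and fusion genes had 6 members higher and 7 lower of 32 tested (median -0.01). Of all genes, 17.2% rose and 15.0% fell. VPS33A, of the complex that tethers autophagosomes to lysosomes, had a log2 fold change of -0.51 (11.8 ± 0.691 CPM in CAF-PAI-1, 16.9 ± 2.43 CPM in CAF, edgeR adjusted p = 0.00148). ATG2B, the paralog of ATG2A, also fell (-0.42, edgeR adjusted p = 0.00875). VMP1, a membrane protein that moves lipids for autophagosome formation, rose by 0.41 to 309.9 ± 14.8 CPM in CAF-PAI-1, against 234 ± 7.18 CPM in CAF libraries (edgeR adjusted p = 3.03e-07). Other cargo receptors and mitophagy genes had 2 members higher and 2 lower of 20. PINK1, the kinase that marks damaged mitochondria, averaged 25.9 ± 3.09 CPM in CAF-PAI-1 and 42.2 ± 2.61 CPM in CAF libraries and fell to 0.613 of the CAF level (log2 fold change -0.71, SE 0.089, edgeR adjusted p = 9.59e-08). SEC62, a receptor for endoplasmic reticulum, rose by 0.28 (edgeR adjusted p = 0.000576), and CALCOCO1, another such receptor, fell by 0.21 on the log2 scale (edgeR adjusted p = 0.0301). The CALCOCO1 call was lost with DESeq2 (adjusted p = 0.0697) and without CAF-PAI-1 replicate 1 (0.0965), CAF replicate 1 (0.144) or CAF replicate 3 (0.166).

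Other lysosomal enzymes had 2 members higher and 9 lower of 40 (median -0.05), where 17.2% of all genes rose and 15.0% fell. CTSH, a cathepsin, FUCA1, which removes fucose, and ARSB, a sulfatase, fell, with log2 fold changes of -0.40, -0.33 and -0.30 (edgeR adjusted p = 0.00559, 0.00938 and 0.00754). Without CAF-PAI-1 replicate 3 the adjusted p was 0.0547 for FUCA1 and 0.0678 for ARSB, and without CAF replicate 1 it was 0.0812 for FUCA1. CTSH averaged 14.3 ± 1.63 CPM in CAF-PAI-1 and 18.9 ± 1.16 CPM in CAF libraries. Other lysosomal membrane and sorting genes had 4 members higher and 3 lower of 23. SORT1, a sorting receptor for lysosomal proteins, averaged 18.7 ± 1.46 CPM in CAF-PAI-1 and 26.9 ± 0.85 CPM in CAF libraries and fell (log2 fold change -0.52, SE 0.096, edgeR adjusted p = 6.43e-05). GNPTAB, which starts the mannose tag that directs hydrolases to lysosomes, fell by 0.27 (edgeR adjusted p = 0.00332), and SLC17A5, a sialic acid exporter, rose by 0.23 on the log2 scale (edgeR adjusted p = 0.0265). The SLC17A5 call was lost with library size alone (adjusted p = 0.122), with DESeq2 (0.0642) and without CAF-PAI-1 replicate 1 (0.142), CAF replicate 1 (0.102) or CAF replicate 2 (0.111). Among 18 tested V-ATPase subunits outside the 42 genes 1 rose and 3 fell. ATP6V1D rose by 0.29 (edgeR adjusted p = 0.00497), and ATP6AP1, an accessory subunit, and ATP6V1C1 fell by 0.22 and 0.19 on the log2 scale (edgeR adjusted p = 0.00129 and 0.0140). ATP6V1C1 did not pass without CAF-PAI-1 replicate 3 (log2 fold change -0.17, adjusted p = 0.0747) or CAF replicate 3 (-0.18, adjusted p = 0.0628).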

How the data were processed

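RNA of Panc-1 after co-culture was sequenced in 6 libraries, 3 per group. The authors deposited raw counts for every gene, 1 column for each library. BWA, Bowtie2, RSEM and hg19 appear in the submitters' processing notes, with neither versions nor roles. The sources used here do not tell how reads were counted or if strand was used. The 58735 gene identifiers are those of GENCODE 29 (GRCh38), which differs from hg19, so coordinates only identify genes. Library preparation used oligo-dT beads, per the labels, whose extraction text names another cell line, Cal27, so markers were checked. The level of the overexpressed gene is not reported here.

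The test was edgeR 4.0.16 under R 4.3.3 (filterByExpr, minimum count 10 and total 15; TMM; robust glmQLFit and glmQLFTest) as CAF overexpressing PAI-1 minus CAF, without covariates. Levels are TMM-scaled CPM, with SD over 3 libraries. The common biological coefficient of variation was 6.06%. Standard errors are the absolute log2 fold change, refitted without edgeR's added prior count, over the root of F. The printed log2 fold changes keep that prior count. Replicates differed by more than sampling noise (chi-square per degree of freedom 2.58 to 9.51). Alternatives used DESeq2 1.42.0 and limma 3.58.1 (voom), other scalings and filters, a replicate block and each library left out. Adding the counts of same-strand protein-coding genes that share at least 1% of a member's exon length was chosen after seeing the data. Members, roles and lists were chosen with earlier results of these data known. All members are accounted for, with values in every library for changed ones and for paralogs or sole readings of a step; from each further list the 3 changed genes with the largest fold change at a mean of at least 5 CPM are named. The floor of 3 counts covers counting error only.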

Additional observations from a re-analysis of the deposited data

How the results depend on the processing

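Over 14 alternatives, no called value changed direction. Of the 19 changed members, 12 passed the threshold in every alternative that tested them, and 7 were lost in at least 1, as given beside them (ATG3, ATG7, ATG9A, ATG14, GABARAP, GABARAPL1 and NBR1). Of 19 further pathway genes named, 13 kept their call throughout and 6 lost it. TFEB, GABARAP and MAP1LC3A were not tested at a mean of at least 10 CPM. With library size alone, 1839 of all genes rose and 3182 fell, against 2571 and 2239 with TMM, and 10 further pathway genes rose, against 21; the median over all genes moved to -0.07, and the cause of other shifts was not tested. Leaving out 1 library gave 7 to 9 members higher and 7 to 11 lower, 13 to 23 pathway genes higher and 24 to 34 lower, and 2124 to 2446 of all genes higher and 1818 to 2227 lower. The lowest of these, 13 pathway genes higher, was without CAF replicate 3. Deviations of same-numbered libraries of the groups were nearly uncorrelated (r across genes 0.0023, 0.012 and 0.0063). This check cannot settle whether libraries were paired, and the labels do not say. Every library did correlate best with its own number except CAF-PAI-1 replicate 1. With the replicate number as a block 9 members rose and 11 fell, GABARAPL2 being added (adjusted p = 0.0428), with 25 and 38 pathway genes and 2708 and 2361 of all genes. DESeq2 called 18 members, beside 2193 of all genes higher and 1720 lower. With limma-voom 19 members were called, beside 2545 of all genes higher and 2203 lower. Depth limits TFEB and GABARAP, which rest on under 100 reads a library.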

Other observations

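Some further genes of the lysosome had sizeable fold changes at low levels that did not pass the test, and are named here after their values were seen. CTSK, a cathepsin of bone-resorbing cells, averaged 2.39 ± 0.533 CPM with CAF overexpressing PAI-1 and 4.06 ± 2.12 CPM with CAF (log2 fold change -0.78, edgeR adjusted p = 0.0643). CTSS, a cathepsin of antigen-presenting cells, averaged 2.53 ± 0.846 and 3.51 ± 0.337 CPM (log2 fold change -0.48, adjusted p = 0.137). ATP6V1C2, a V-ATPase subunit, averaged 1.43 ± 0.406 and 0.874 ± 0.223 CPM (log2 fold change 0.69, adjusted p = 0.166). CLN3, a lysosomal membrane protein, was read at 3 to 10 counts with CAF overexpressing PAI-1 and 8 to 11 with CAF, and was left out by the filter.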
